A study of Mus musculus with 4 samples.

Results

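Flag-Sp5 peaks that lie close to one another are described here, as mapped by chromatin immunoprecipitation and sequencing (ChIP-seq) in differentiating mouse embryonic stem cells. A peak belongs to this set when the midpoint of at least 1 other peak on its chromosome is at most 1000 bp away, and 719 of the 9428 listed peaks met that rule (7.63%, 95% Wilson interval 7.11 to 8.18%). The peaks were chosen by this measured distance, so that count and the distances themselves are a description and support nothing further.

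All libraries came from A2Lox.cre ES cells, a line in which a cDNA can be placed under doxycycline control and which here expressed Flag-tagged Sp5. The cells were maintained on feeder fibroblasts from FVB mice, which were removed before the cells were aggregated into embryoid bodies. Both groups, 2 Flag-Sp5 ChIP libraries (M2 anti-Flag antibody, 4 µg per immunoprecipitation) and 2 input libraries (no antibody), carry the label of doxycycline induction from day 2 for 24 h with harvest on day 3. The deposited result is a single list of intervals for all 4 libraries, so no value below has a spread between replicates and no test between groups could be made. The list concerns the induced, tagged protein, and no Flag immunoprecipitation without Flag-Sp5 was among the libraries. Whether the cells carried markers of their labelled stage was not examined, since nothing in the list measures expression.

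Sp5 belongs to the SP/KLF transcription factors, which use zinc fingers to bind GC-rich boxes in promoters and enhancers. Its gene is a direct target of Wnt/β-catenin signalling and is active in the primitive streak, where mesoderm forms. Binding sites of SP/KLF factors are often present in several copies within a regulatory element, and a peak list can show such an element as 1 interval or as several, depending on the fragment length and on how far the signal drops between them. The sequence and the gene context of the peaks were not analysed here, and whether 2 close intervals are separate bound sites or parts of a single bound region was not tested.

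The close peaks were nearly all pairs. Chained by neighbouring midpoints up to 1000 bp apart, the 719 peaks formed 349 groups, of which 331 were pairs (94.8%, Wilson interval 92.0 to 96.7%), 16 were triplets, 1 held 4 peaks and 1 held 5 peaks. The 18 groups of 3 or more contained 57 peaks, 7.93% of the close peaks. All 719 together covered 163786 bp of the 2078845 bp under peaks in the list (7.88%), close to their share of the number of peaks.

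Within the groups there were 370 steps from a peak to its next neighbour. The midpoint distance of these steps was 505.2 bp at the median, with quartiles at 334 and 714.5 bp and extremes of 191 and 998 bp. The numbers on either side of 500 bp were nearly equal, 181 up to 500 bp and 189 beyond it. Over successive 250 bp classes, however, the count rose from 31 up to 250 bp to 150 between 250 and 500 bp and then declined to 111 and 78. Since the narrowest listed peak measures 141 bp and no peaks overlap, distances below that width cannot occur.

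Across the 1 kb boundary the decline went on for a further 1 kb. There were 370 neighbouring pairs in the first kb, 195 in the second, and between 76 and 112 in each of the 8 following 1 kb classes up to 10 kb. In 500 bp classes the counts were 181, 189, 121 and 74 up to 2 kb. The boundary of 1000 bp thus falls within a slope and does not mark a break in the list. Just inside it were the 2 partners of a pair on chromosome 2 (998 bp apart), those of a pair on chromosome 4 (994.5 bp) and a peak on chromosome 10 (993 bp). Just outside were 2 neighbours on chromosome 2 (1002.5 bp), 2 on chromosome 4 (1003.5 bp) and a peak on chromosome 3 (1006.5 bp).

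The gap between facing edges, the stretch without called signal between neighbours, is bounded by the rule on midpoints and is given as a description. Its median was 253 bp, with quartiles at 117.2 and 480.2 bp, and it ran from 38 to 828 bp. A gap of up to 200 bp separated 150 of the 370 steps (40.5%), 95 steps had gaps over 200 and up to 400 bp, and 125 had longer ones. In 141 steps (38.1%) the gap was shorter than the narrower of its flanking peaks, and in 102 steps (27.6%) it was longer than both flanking peaks together. No neighbours anywhere in the list were less than 38 bp apart, while 23 gaps measured under 50 bp and 11 of these were 38 to 41 bp. The merging distance of the peak caller is not named in the sources used here. All 4 libraries carry the label of chromatin sheared into fragments of 100 to 300 bp. The 150 gaps of up to 200 bp are thus within the range of fragment length or below it.

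**Figure D1:**
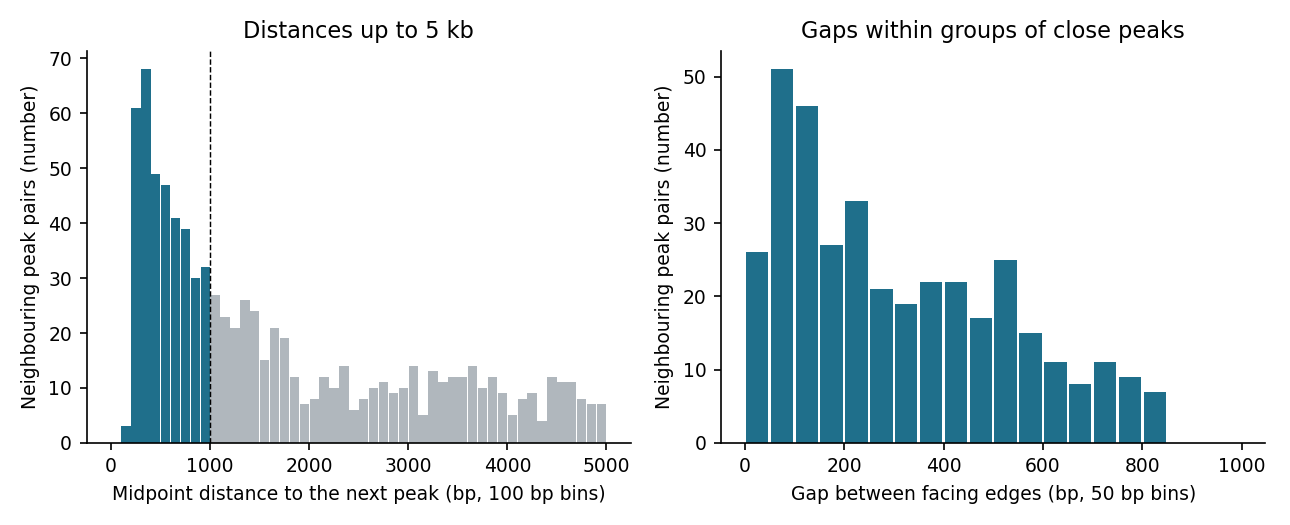
Left, the number of neighbouring peak pairs by midpoint distance in 100 bp bins up to 5 kb, with blue bars up to the 1000 bp limit (dashed line) and grey bars beyond it. Right, the number of neighbouring pairs within groups by the gap between facing edges in 50 bp bins; the bins between 50 and 150 bp are highest, with 51 and 46 pairs, and the longest gap is 828 bp.

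The tightest groups show how short a gap between listed intervals could be. Their gaps are below the labelled fragment length of 100 to 300 bp, and whether they separate distinct bound sites was not tested. On mm9, the build named in the submitters' processing notes, the pair on chromosome 6 from 124380968 to 124381433 consisted of peaks of 252 and 176 bp with 38 bp between them. Gaps of 38 bp also occurred on chromosome 10 from 119653883 to 119654308 (156 and 232 bp wide), on chromosome 15 from 61818478 to 61818936 (188 and 233 bp) and on chromosome 16 from 25180003 to 25180544 (248 and 256 bp). In these 4 pairs between 91.1 and 93.0% of the outer span lay inside a peak. The next shortest gap, 39 bp, was inside the 5-peak group on chromosome 9.

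Measured from outer edge to outer edge, a pair spanned a median of 735 bp (quartiles 544 and 964 bp, range 332 to 1303 bp). Groups of 3 or more spanned 1055 to 2626 bp. Over all 349 groups the median span was 759 bp, and a median of 64.1% of the span lay inside peaks (range 26.7 to 93.6%). The span contains the distance that chose the peaks, so it is given as a description. More than 1000 bp was spanned by 90 of the 349 groups.

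The 5-peak group was the longest and consisted only of narrow peaks. It ran on chromosome 9 from 3018426 to 3021051, with widths of 169, 160, 158, 157 and 151 bp from left to right. Midpoint steps within it were 701.5, 685, 196.5 and 883 bp, and peaks made up 30.3% of its span. It lies at the very start of the listed part of that chromosome, in a region with 12 peaks within 100 kb whose sequence was not examined. The 4-peak group, on chromosome 14 from 100683697 to 100685361, had widths of 172, 151, 173 and 257 bp and more even steps of 411.5, 609 and 430 bp.

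Among the 16 triplets the middle peak was the widest in 8, the first in 4 and the last in 4. Their 2 steps differed in every triplet, the longer being 1.66 times the shorter at the median (range 1.12 to 3.65). No reference for this ratio was computed. The outer midpoints of 10 triplets lay more than 1000 bp apart, so these hold together only through the middle peak. A triplet on chromosome 3 from 96500193 to 96501684 had a 755 bp peak flanked by peaks of 150 and 141 bp, at gaps of 315 and 131 bp. A second triplet on chromosome 3, from 51905567 to 51906699, had its wide peak of 603 bp at the right end, after peaks of 175 and 141 bp. A different layout was found on chromosome 19 from 10305573 to 10307349, with peaks of 327, 345 and 188 bp at gaps of 382 and 535 bp. On chromosome 8 from 123061166 to 123063078, widths of 215, 378 and 266 bp were spread over 1913 bp, the longest span of any triplet. Chromosome 9 carried 3 triplets besides its 5-peak group, chromosome 3 carried 3, and chromosomes 11, 12 and 17 carried 2 each.

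**Figure D2:**
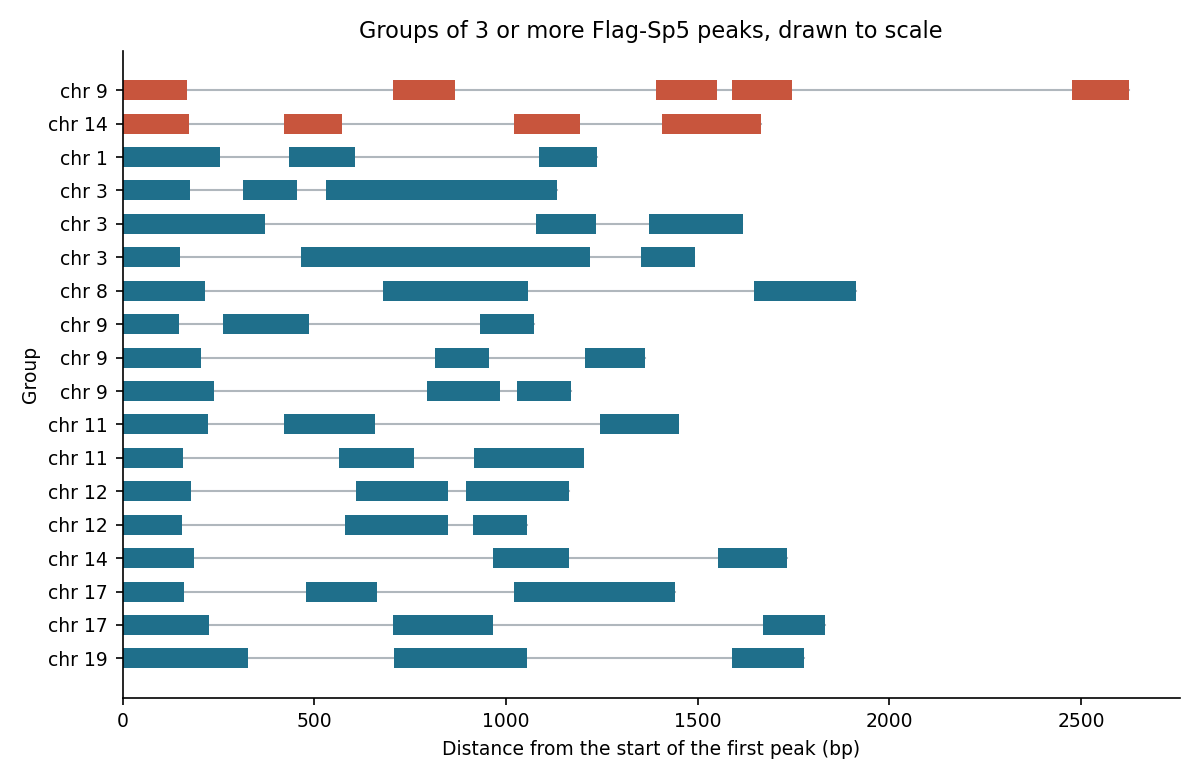
The 18 groups of 3 or more peaks drawn to scale from the start of their first peak (x axis, bp), with filled boxes for peaks and thin lines for gaps, red for the groups of 5 and 4 peaks and blue for the 16 triplets. The 5-peak group on chromosome 9 has boxes of 151 to 169 bp, whereas 2 triplets on chromosome 3 each hold a box of over 600 bp.

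In width, which the rule did not name, the close peaks differed little from the rest of the list. Their median width was 203 bp (order-statistic 95% interval 197 to 209 bp), against 194 bp (193 to 196 bp) for the 8709 other peaks, a difference of 9 bp. The quartiles were 165 and 260.5 bp for close peaks and 160 and 249 bp for the others. These intervals cover the sampling of peaks only and treat partners as independent, and the difference was not tested. It went the same way on 12 of the 20 chromosomes and the opposite way on 8. The largest differences in favour of close peaks were 33 bp on chromosome 16 (12 close peaks) and 30 bp on chromosome 10 (24 close peaks). On chromosome 12, with 18 close peaks, their median was lower by 17.5 bp (176.5 against 194 bp), and on chromosome 9 it was 177 against 192 bp.

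Peaks wider than 300 bp made up 13.8% of the whole list. Among the close peaks they were 105 of 719 (14.6%, Wilson interval 12.2 to 17.4%), a share near that background. The smallest width in the list, 141 bp, was held by 7.18% of all peaks and by 47 of the close peaks (6.54%, interval 4.95 to 8.58%), again near the background. The widest close peak measured 770 bp, whereas the widest peak of the list, at 1407 bp, had no neighbour within 1 kb.

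Divided by distance, the close peaks were not uniform. The 128 peaks with a neighbour up to 300 bp away had a median width of 175.5 bp (interval 166 to 186 bp), and 2 of them exceeded 300 bp. From 300 to 400 bp the median was 204.5 bp (interval 190 to 223 bp), and from 400 to 500 bp it was 220 bp (interval 203 to 238 bp). Beyond that it was 213.5 bp between 500 and 750 bp and 207.5 bp between 750 and 1000 bp. Peaks whose midpoints lie close cannot both be wide without overlapping, so the low widths at the shortest distances follow at least in part from the geometry of the list. Where the geometry limits width less, at 500 to 1000 bp, 69 of 358 peaks were wider than 300 bp (19.3%, interval 15.5 to 23.7%), above the 13.8% of the whole list.

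That higher share of wide peaks was not limited to the close peaks. Peaks with their nearest neighbour between 1 and 2 kb, which fall outside the rule, had a median width of 212 bp (interval 201 to 225 bp), and 79 of 360 exceeded 300 bp (21.9%, interval 18.0 to 26.5%). The corresponding share was 16.0% from 2 to 5 kb, 17.3% from 5 to 10 kb, 13.5% from 10 to 100 kb and 11.9% beyond 100 kb. The median width over these same classes was 203, 201, 195 and 190 bp. The 5 classes from 400 bp to 2 kb thus had medians of 207.5 to 220 bp with overlapping intervals, and the limit at 1 kb did not coincide with a step in width.

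**Figure D3:**
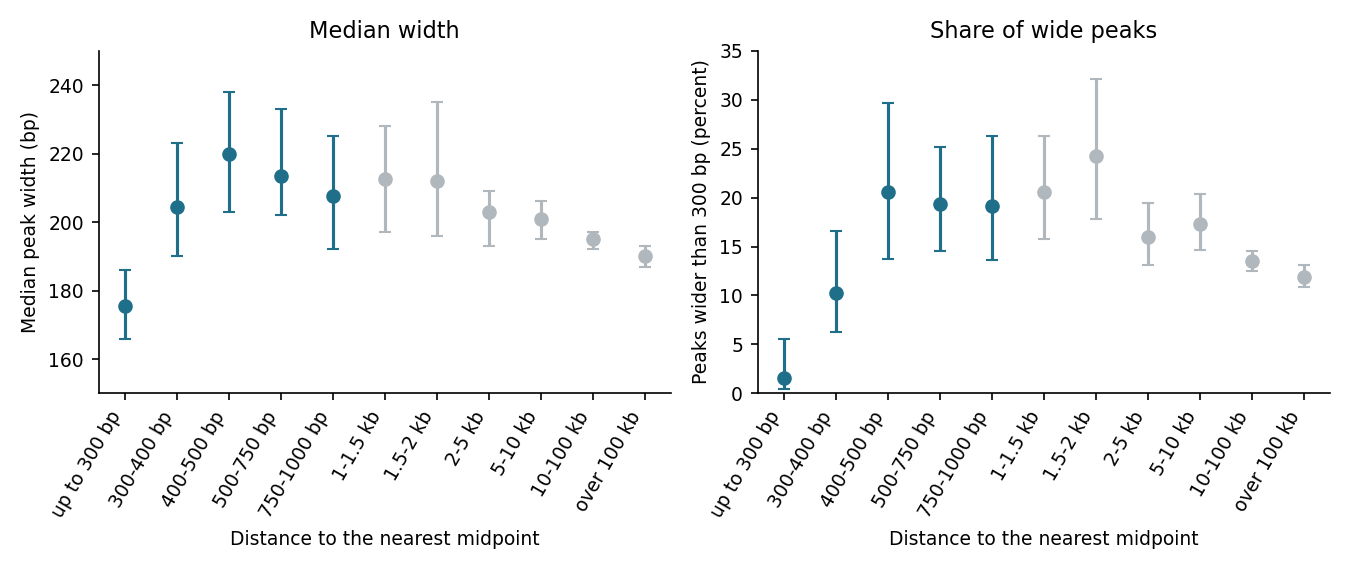
Median peak width in bp (left, axis from 150 bp) and percent of peaks wider than 300 bp (right) by distance to the nearest midpoint, with blue points for the classes up to 1000 bp and grey points beyond, and bars for 95% intervals (order-statistic for medians, Wilson for shares). Peaks with a neighbour up to 300 bp away are lowest in both panels, at 175.5 bp and 1.56%, and the classes from 400 bp to 2 kb are highest.

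The partners of a pair were not matched in width. Over the 331 pairs the wider partner had a median of 244 bp and the narrower a median of 172 bp, and the median ratio of wider to narrower was 1.34 (quartiles 1.16 and 1.67). The widths of left and right partners showed almost no relation across pairs (Pearson r 0.030, Spearman rho 0.034, n = 331 pairs, all from the same list). Neighbours 1 to 2 kb apart gave r -0.014 over 195 pairs and neighbours 10 to 100 kb apart gave r 0.031 over 3152 pairs. Neither side was favoured: the right partner was wider in 173 pairs and the left in 154, with 4 pairs equal (52.9% right among unequal pairs, Wilson interval 47.5 to 58.3%).

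A ratio of up to 1.2 was found in 104 pairs (31.4%, Wilson interval 26.7 to 36.6%), and 49 pairs had a ratio above 2 (14.8%, interval 11.4 to 19.0%). Neighbours 10 to 100 kb apart gave 35.8% and 13.3% (419 of 3152 above 2, interval 12.2 to 14.5%) and a median ratio of 1.32, so the pairs as a whole lay near that background. Such unequal pairs were 7.23% of the 166 pairs up to 500 bp apart (interval 4.18 to 12.2%) and 22.4% of the 165 pairs farther apart (interval 16.7 to 29.4%). Among neighbours 1 to 2 kb apart the share was 20% (interval 15.0 to 26.2%). At 1 to 2 kb and at 10 to 100 kb a peak can belong to 2 neighbouring pairs, unlike in the 331 pairs, and the intervals ignore this. Set against the 13.3% at 10 to 100 kb, the nearest pairs were thus low and the pairs at 500 to 1000 bp were high. At the shortest distances the spacing also restricts the wider partner. In 239 pairs neither partner exceeded 300 bp, in 86 exactly 1 did and in 6 both did, so that 27.8% held a peak of that width (interval 23.2 to 32.9%). Neighbours 1 to 2 kb apart held one in 78 of 195 cases (40%, interval 33.4 to 47.0%), with both above 300 bp in 11. This difference was not tested and includes the limit that spacing sets on width. Counted per peak, 14.6% of close peaks exceeded 300 bp, near the 13.8% of the whole list. Among peaks with their nearest neighbour at 1 to 2 kb the share was 21.9%, so that class is rich in wide peaks. That class leaves out all close peaks, whereas the 195 neighbours 1 to 2 kb apart can include them, so the sets differ. No share per neighbouring pair was computed for the rest of the list. The smallest width of 141 bp was held by both partners in 2 of the 331 pairs and by 1 partner in 38. Of the 195 neighbours 1 to 2 kb apart, it was held by both in 0 and by 1 in 23. Per peak, 6.54% of close peaks had that width, near the 7.18% of the whole list.

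The most unequal pair was on chromosome 8 from 123033014 to 123034217, with widths of 622 and 183 bp (ratio 3.40) and a gap of 399 bp. A pair on chromosome 11 from 51671588 to 51672462 followed, with 147 and 483 bp (ratio 3.29), and then one on chromosome 8 from 80791919 to 80792781 with 177 and 576 bp (ratio 3.25). In the first the wide peak came first, and in the other two it came second.

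Groups with the most sequence under peaks were of several kinds. The pair on chromosome 2 from 32986232 to 32987493 combined peaks of 770 and 327 bp, 1097 bp in sum, with a gap of 165 bp. On chromosome 7 a pair from 150201618 to 150202730 had peaks of 368 and 594 bp, so that both partners were wide (962 bp in sum). The pair on chromosome 13 from 54890312 to 54891471 had 636 and 274 bp at a gap of 250 bp (910 bp in sum). The other members of the 5 largest by summed width were the chromosome 3 triplets with a dominant peak, at 1046 and 919 bp.

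**Figure D4:**
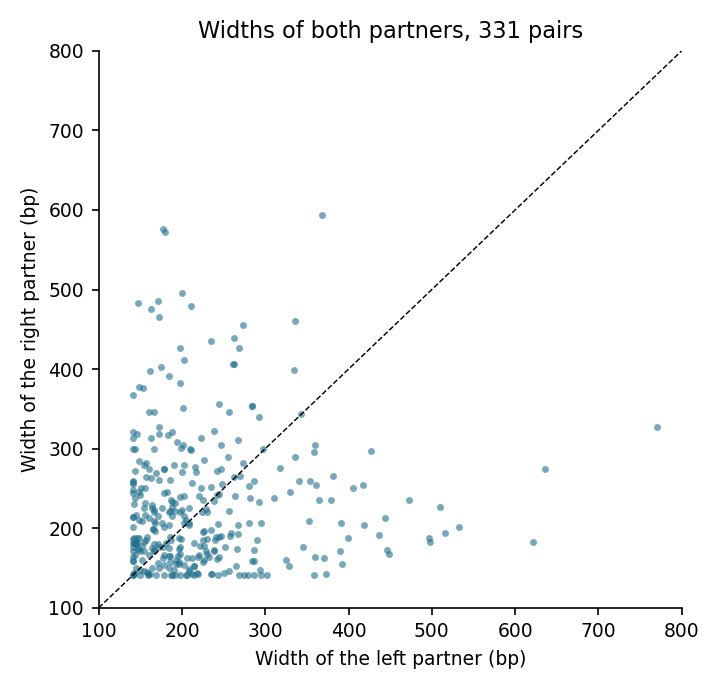
Width of the left partner (x axis, bp) against width of the right partner (y axis, bp) for the 331 pairs, each point a pair and the dashed line equal widths. Points spread along both axes with few in the upper right, and 6 pairs have both partners above 300 bp.

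Close peaks occurred on all 20 chromosomes that carry peaks, in unequal shares. Chromosome 15 had the highest share, 50 of 412 peaks in 25 pairs (12.1%, Wilson interval 9.33 to 15.6%), 1.59 times the 7.63% of the whole list. Chromosome 9 followed with 48 of 490 (9.80%, interval 7.47 to 12.8%) and chromosome 17 with 42 of 434 (9.68%, interval 7.24 to 12.8%). The lowest shares were on X with 6 of 163 peaks (3.68%, interval 1.70 to 7.80%), chromosome 16 with 12 of 291 (4.12%, interval 2.37 to 7.07%) and chromosome 10 with 24 of 496 (4.84%, interval 3.27 to 7.10%). The intervals of chromosomes 15, 10 and 16 left out the share of the whole list, and those of the other 17 chromosomes included it. Partners enter the list together, so these intervals, which count peaks as independent, are too narrow.

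In the whole list, 361 of 9428 peaks had another within 500 bp and 1079 had another within 2000 bp. Of the 719 close peaks, 361 thus had a neighbour within 500 bp. Chromosome 15 ranked first at each distance limit computed, with 6.80% of its peaks within 500 bp of another and 17.0% within 2000 bp. X ranked last at each, at 1.23% and 6.13%. Chromosome 7 ranked 4 at 1000 bp (9.27%), 3 at 2000 bp (13.7%) and 14 at 500 bp (2.88%), and 18 of its 58 close peaks had a neighbour within 500 bp. Chromosome 16 moved the other way, from rank 19 at 1000 bp to rank 11 at 500 bp (3.44%), with 10 of its 12 close peaks within 500 bp. Chromosome 11, which has the most peaks per Mb of span (5.76), had a below-average share of close peaks (5.86%, 40 of 683 peaks), and 1.76% of its peaks had a neighbour within 500 bp, rank 19 of 20. Over the 19 autosomes, peaks per Mb and share of close peaks had a Pearson r of 0.069 and a Spearman rho of 0.172, and over all 20 chromosomes r was 0.297, both as descriptions of 1 list.

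**Figure D5:**
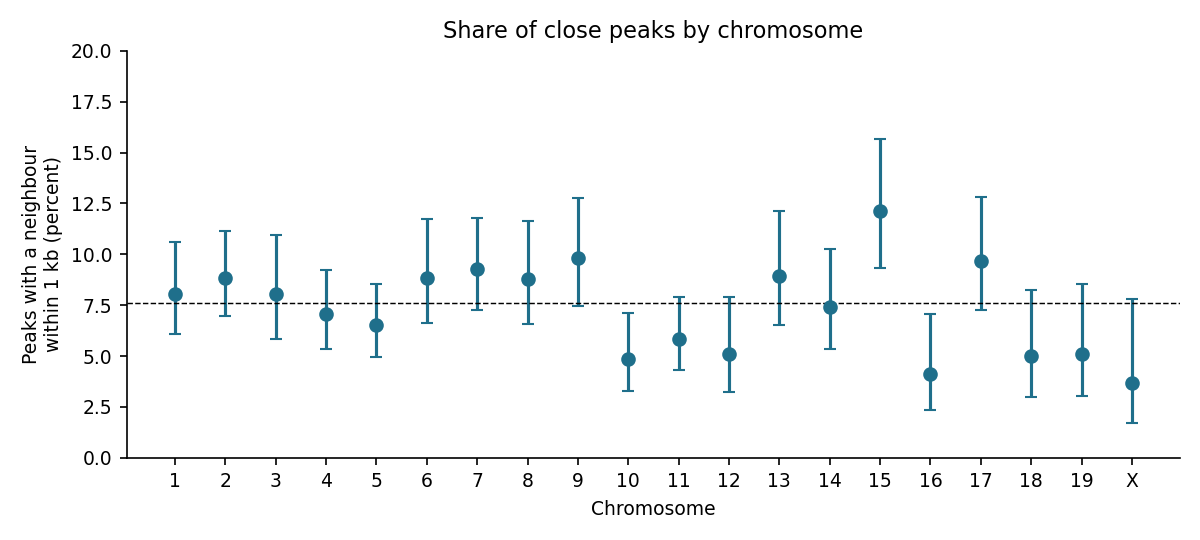
Percent of each chromosome's peaks that have another midpoint within 1 kb, with 95% Wilson intervals as bars and the 7.63% of the whole list as the dashed line. Chromosome 15 is highest at 12.1% and X lowest at 3.68%, and the intervals of chromosomes 10, 15 and 16 do not reach the line.

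On a finer scale, close peaks were more frequent where other peaks were dense. For this, the peaks within 500 kb on either side were counted, leaving out the peak itself and its own group. The share of close peaks was 6.12% among the 3154 peaks with 0 to 3 such neighbours (Wilson interval 5.33 to 7.01%) and 6.20% among the 1789 peaks with 4 to 5 (interval 5.18 to 7.42%). It was 7.78% among the 2302 peaks with 6 to 9 (interval 6.75 to 8.94%) and 10.8% among the 2183 peaks with 10 to 32 (interval 9.58 to 12.2%). The median number was 7 for close peaks and 5 for all other peaks. Close peaks were thus less frequent in sparse stretches but not absent from them. Of the 719 close peaks, 193 had 3 or fewer such neighbours, as had 3154 of all 9428 peaks. None was found for 22 close peaks (3.06%) and for 435 of the 8709 other peaks (4.99%). The differences between these classes and sets were not tested, and partners share their surroundings.

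The nearest peak outside the own group lay a median of 36.4 kb from a close peak (quartiles 10.1 and 115.8 kb), against 55.7 kb (quartiles 16.6 and 150.1 kb) from any other peak to its nearest neighbour. Such a peak stood within 10 kb for 177 of the 719 close peaks (24.6%, Wilson interval 21.6 to 27.9%) and for 1526 of the 8709 others (17.5%, interval 16.7 to 18.3%). Within 100 kb the shares were 71.1 and 64.5%. Distances under 1 kb are left out of both sets by the rule itself, and the difference was not tested.

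Another group was found within 10 kb of 6 of the 349 groups, within 100 kb of 49 and within 1 Mb of 160, and the median distance to the next group was 1.30 Mb. For 25.2% of groups, at least 1 member had a peak of any kind outside the group within 10 kb. Close peaks are 7.63% of the list, and whether groups lay nearer to or farther from one another than other peaks was not tested. The place with most groups within 1 Mb was on chromosome 3 from 88296371 to 89199084, where 6 groups held 13 of the 30 peaks. In 4 places there were 4 groups, of which the first in chromosome order, both on chromosome 2, ran from 32483587 to 33461789 (8 of 18 peaks in groups) and from 118532434 to 119151515 (8 of 20 peaks). The other two were on chromosome 7 from 29156674 to 30102842 (8 of 25 peaks) and on chromosome 8 from 122858813 to 123063078. The chromosome 8 place was the most compact, with 9 of its 12 peaks in 4 groups over 204.3 kb, and it includes both the most unequal pair and the longest triplet. All these places were chosen for their groups, and each was cut at the outer edges of its first and last group. The shares of peaks in groups there follow largely from that choice and cannot be set against the 7.63% of the whole list.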

How the data were processed

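The authors deposited 1 interval list of 3 columns (chromosome, start, end) for all 4 libraries. Per the submitters' processing notes it was made on mm9 with tools that included Bowtie, Picard, HOMER and MACS2, and no version or role is named. For the threshold, merging distance and pooling of libraries, the sources used here give nothing. No score, summit or read count is listed, so depth is unknown. Positions are printed 1-based. Midpoints, gaps, groups and widths were computed with Python 3.11.15, numpy 2.4.6 and pandas 2.3.3. Grouping was tested on a simulated list of 8665 peaks and recovered 321 of 321 planted groups. Planted neighbours lay inside the 1000 bp limit and all other peaks well beyond it. This checked the code only and not the grouping of peaks near the limit. Wilson and order-statistic intervals are at 95% and cover the counting of peaks only. The members and lists were chosen with earlier results of these data known. Named positions were all groups of 4 or more peaks, the 5 shortest gaps, the 5 largest summed widths, the 3 most unequal pairs, the 5 peaks on either side of the limit, the 3 highest and 3 lowest chromosomes and the 3 places with most groups, with ties taken in chromosome order. The triplets, the 2 further places with 4 groups, and chromosomes 7, 11 and 12 were named after their values were seen. The alternatives were other distances and peak subsets.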

Additional observations from a re-analysis of the deposited data

How the results depend on the processing

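Counts and gaps depend on the distance limit by construction. Within 500 bp, 361 of the 9428 peaks were close and formed 180 groups, 99.4% of them pairs. Their median gap was 117 bp and their width difference from other peaks was 1 bp in place of 9 bp. Within 2000 bp, 1079 of the 9428 peaks were close, with 91.4% of groups pairs and a median gap of 495 bp. On chromosome 15 the share was 6.80% and 17.0% at these limits, and on X it was 1.23% at 500 bp. With facing edges at most 1000 bp apart the median gap was 324.5 bp. Of the 4680 peaks wider than the list median, 212 were close to another of them and formed 105 groups, 98.1% of them pairs. Leaving out peaks lowers the number of close neighbours by construction. Limiting the whole midpoint span of a group to 1000 bp gave 98.3% pairs. The remaining 124 of 140 recomputed values stayed within their interval or within 1.5 times the count. Most of the 140 values came from leaving out 1 of the 20 chromosomes. No chromosome held more than 64 of the 719 close peaks, so leaving 1 out could not move that count beyond 1.5 times. The tally is therefore no measure of robustness. With each of 20 chromosomes left out the number of close peaks was 655 to 713 and the width difference 5 to 10 bp, and 714 close peaks were found after removal of the chromosome 9 start (100 kb from its first peak). The values for surroundings with each group counted once (25.2%) and without that stretch (24.1%) were added after seeing the data. The first counts a group when any of its members has a peak outside the group within 10 kb. It is therefore not comparable with the shares per peak. No paired analysis was possible because libraries are not separated in the list, and no replicate could be left out for the same reason.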
